A study of Mus musculus with 51 samples.

Results

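The 8 bulk RNA-seq libraries described here were made from unstimulated Myc-CaP cells, a mouse prostate cancer line whose tumor of origin carried a MYC transgene under an androgen-responsive probasin promoter. They were chosen by their labels alone, from 51 libraries in all, as those that hold the line with no IFN-γ added and with UBA1 lowered in activity or in amount. The first experiment compared untreated wild-type cells with cells given the UBA1 inhibitor TAK-243 at 50 nM, for 18 hours by the study's methods. The second compared wild-type cells carrying a nontargeting guide RNA (NC) with cells labelled as Uba1-depleted (sgUba1), both listed with PBS. Each of the 4 groups had 2 libraries, numbered R1 and R2. The depletion is partial, in a line held to carry 2 X chromosomes. The CRISPR plasmid was introduced by transfection, and cells were selected with puromycin and sorted singly into 96-well dishes, so that each guide line may be a single clone. The labels do not say which Uba1 guide was used, nor whether R1 and R2 were separate cultures, and p-values below then measure only the spread between these libraries. Length of exposure, control cells, sequencing depth and experiment all differ between the drug and the guide RNA and cannot be told apart.

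Ubiquitin is attached to proteins by a cascade of E1 activating, E2 conjugating and E3 ligase enzymes, and UBA1 is the E1 that charges most of the E2s with ubiquitin. Ubiquitinated proteins are degraded by the proteasome, redirected or altered in activity, so that loss of E1 function touches protein quality control, the cell cycle and signaling alike. TAK-243 forms an adduct with ubiquitin in the active site of UBA1 and blocks its catalysis, while the protein itself stays in the cell. A guide RNA directs Cas9 to cut the gene, and less UBA1 is then made for the life of the line.

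The guide sequences listed by the study are shown because they define the depletion, in lower case with the adjoining PAM (the motif that Cas9 needs) in capitals. Positions are on mouse build GRCm38 and refer to the bases before the PAM. Uba1 (ENSMUSG00000001924.15) lies on the plus strand at chrX:20658326-20683179.
sgUba1 #1: taccaatgtcctcctcccgaAGG
sgUba1 #2: tagccgtggtatcaagctagTGG
Nontargeting control: acgtgtaaggcgaacgcctt
Guide #1 matched the minus strand at chrX:20669136-20669155, in coding exon 5 of the 26 exons of Uba1-201. Guide #2 matched the plus strand at chrX:20670263-20670282, in coding exon 6 of 26. The nontargeting sequence matched 0 Uba1 transcripts.

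The Uba1 transcript moved in opposite directions under the drug and the guide. It stood at 456 and 447 CPM, the read count after scaling by depth and composition, in untreated R1 and R2, and at 589 and 558 CPM with TAK-243. It stood at 538 and 528 CPM in NC and at 296 and 284 CPM in sgUba1. Neither pair of groups overlapped. The log2 fold change was 0.36 ± 0.03 (SE, n = 2 against 2) for TAK-243 (edgeR quasi-likelihood test, adjusted p = 1.339e-11). It was -0.87 ± 0.05 for sgUba1 (edgeR adjusted p = 3.917e-07), which is 0.546 times the NC level. The difference of the effects was past the threshold of an edgeR adjusted p of 0.05 as well (adjusted p = 7.578e-13). Transcript level is not a measure of UBA1 activity, and for the drug it says nothing of how far the enzyme was blocked.

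Library totals ran from 12860844 to 16793793 counts in the TAK-243 experiment and from 26768450 to 34751483 in the guide RNA experiment, and the common biological coefficient of variation was 0.0292 and 0.0560. Mitochondrial genes held 1.59% to 2.15% of counts. NC R1 and R2 stood farther apart than the other pairs, with a chi-square statistic over its degrees of freedom of 16.9 against 1.93 to 3.80. The labels call the cells epithelial, and defining epithelial and prostate markers were partly absent: Pbsn, Tmprss2 and Cldn7 were at 0 in all 8 libraries and Epcam reached at most 0.0608 CPM. Of 14 leukocyte markers 4 were at 0 in all 8 libraries, and their summed level was 6.88 to 7.72 CPM in untreated cells, 12.9 to 15.3 with TAK-243, 9.37 to 11.98 in NC and 7.93 to 9.03 in sgUba1. Of 7 fibroblast markers 3 were at 0 in all 8, with sums of 22.9 to 24.7 CPM in untreated cells, 36.2 to 39.6 with TAK-243, 15.9 to 16.1 in NC and 16.6 to 18.6 in sgUba1. Of 7 endothelial markers 2 were at 0 in all 8, with sums of 0.314 to 0.579 CPM untreated, 2.46 to 3.47 with TAK-243, 0.0744 to 0.295 in NC and 0.566 to 0.679 in sgUba1. Pdgfra alone made most of the fibroblast sum, at a mean of 22.6 CPM untreated and 36.1 with TAK-243. Pecam1 made most of the endothelial sum with TAK-243, at a mean of 2.57 CPM. Ptprc, the general leukocyte marker, reached at most 0.0849 CPM. The part of these markers in the results was not tested. In bulk RNA, fewer cells of a kind and less RNA per cell cannot be told apart.

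TAK-243 moved far more genes than sgUba1, and by more. Of 15708 genes tested, 9734 (62%) were past the threshold for TAK-243, with 4724 (30.1%) higher and 5010 (31.9%) lower. For sgUba1 4583 (29.2%) were past it, with 2470 (15.7%) higher and 2113 (13.5%) lower. At least a 2-fold change as well was seen in 3477 genes (22.1%) for TAK-243 and in 500 (3.18%) for sgUba1. The median absolute log2 fold change over all genes tested was 0.54 for TAK-243 and 0.21 for sgUba1. The sgUba1 count fell without either sgUba1 library and rose without NC R1. The common biological coefficient of variation was 0.0292 in the TAK-243 experiment and 0.0560 in the guide RNA experiment. Counts of genes past the threshold thus come from tests of unlike power.

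At the threshold alone and with all libraries, the genes moved by both did not share a direction more often than they opposed each other. Both tests were passed by 3574 genes, which is 36.7% of those moved by TAK-243 and 78.0% of those moved by sgUba1. Of these, 1729 (11% of genes tested) moved the same way and 1845 (11.7%) in opposite ways, so that 48.4% agreed in sign. Requiring at least a 2-fold change in each as well turned the balance. Then 124 moved the same way and 91 in opposite ways, so that 57.7% agreed in sign. The share of sgUba1 genes also moved by TAK-243 was near its background at matched expression. Among 5675 genes with a mean log2 CPM of at least 5, 84.1% were moved by TAK-243, and among the 2496 of these moved by sgUba1 84.8% were. Across all genes tested Pearson's r between the effects was 0.05 (Spearman's rho -0.03), a description over genes, which are not independent replicates. By comparison, the effects formed from R1 alone and R2 alone correlated across genes at 0.81 for TAK-243 and 0.60 for sgUba1. Without sgUba1 R2 the genes moved the same way numbered 1120, and the genes moved in opposite ways numbered 1182. Without sgUba1 R1, or without NC R2, the balance turned, with slightly more genes moved the same way than in opposite ways.

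**Figure D1:**
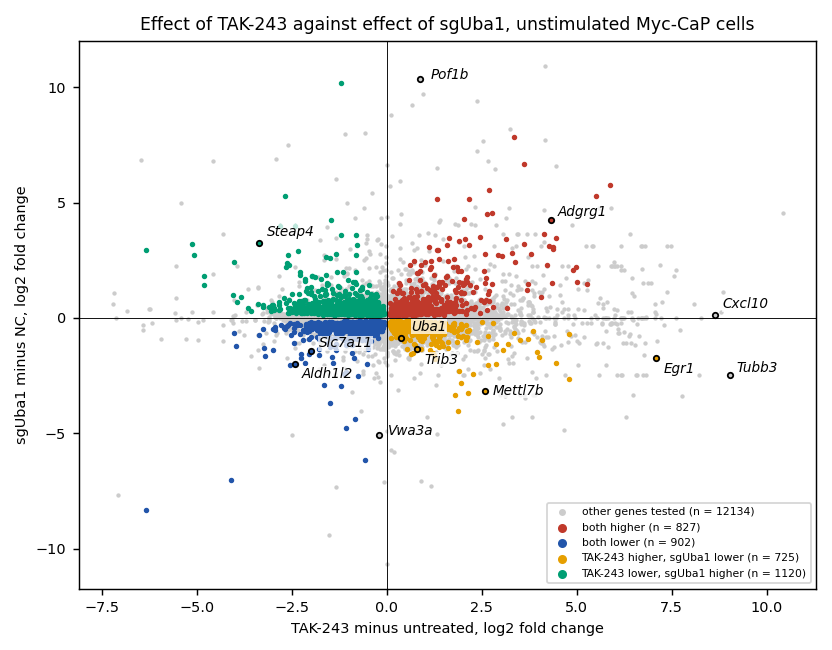
Log2 fold change of TAK-243 against untreated (x axis) and of sgUba1 against NC (y axis) for each of the 15708 genes tested, with genes moved by both coloured by their class and all other genes in grey. The cloud is wide along the TAK-243 axis and narrow along the sgUba1 axis, and shows little slope (r = 0.05).

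The effects themselves differed in 8692 genes (55.3%), of which 3953 stood higher under TAK-243 relative to sgUba1 and 4739 lower. Among the genes moved the same way, the sizes differed in 988. In 865 of these the TAK-243 change was larger, and in 123 the sgUba1 change. A gene was called moved by one agent only where it passed that test, missed the other, and passed the test of the difference. By this rule TAK-243 alone moved 4911 genes, 2312 (14.7%) higher and 2599 (16.5%) lower. The guide alone moved 659 genes, 361 (2.3%) higher and 298 (1.9%) lower.

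Genes raised by both numbered 827 (5.26% of those tested), with a median log2 fold change of 0.65 for TAK-243 and 0.32 for sgUba1. Lypd3, which encodes a GPI-anchored surface protein of squamous epithelia, stood at 0.900 and 0.439 CPM untreated and 14.7 and 13.0 with TAK-243. In the guide lines it stood at 0.744 and 0.558 CPM in NC and 5.21 and 5.10 in sgUba1. The log2 fold changes were 4.38 ± 0.25 and 2.99 ± 0.22 (edgeR adjusted p = 1.041e-15 and 4.677e-06), and the groups did not overlap. C3, the central component of complement, rose from 0.707 and 0.439 CPM to 9.61 and 12.8 with TAK-243. It rose from 0.112 and 0.230 CPM in NC to 1.56 and 1.47 in sgUba1 (log2 fold changes 4.27 and 3.10, edgeR adjusted p = 6.129e-14 and 0.0002023).

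Several of the genes raised most by both were barely detected in control cells, so their ratios are loosely bounded. Tmcc3, at chr10:94311949-94590956, stood at 0.450 and 0.314 CPM untreated and 4.13 and 3.57 with TAK-243, and at 0 and 0.0328 CPM in NC and 4.59 and 5.04 in sgUba1. It had 1 count in NC, and the sgUba1 to NC ratio was 276 (95% counting interval 49.2 to 10930, exact). Adgrg1, an adhesion G protein-coupled receptor, stood at 0 and 0.188 CPM untreated, 1.64 and 2.46 with TAK-243, 0.0372 and 0 in NC, and 0.481 and 0.311 in sgUba1. Its ratios were 20.9 (6.82 to 104.5) and 22.7 (3.76 to 929.5). The Adgrg1 call for sgUba1 was lost without NC R2 (edgeR adjusted p = 0.06389) or sgUba1 R1 (edgeR adjusted p = 0.06986). Cftr, the chloride channel of epithelia, stood at 0.257 and 0.188 CPM untreated, 4.74 and 4.60 with TAK-243, 0.0372 and 0.0656 in NC, and 0.566 and 0.368 in sgUba1. The others ranked in this class were Ly6g6c, Dnah6 and Ptpn22. The Ly6g6c call for TAK-243 was lost without untreated R1 (edgeR adjusted p = 0.07651) or TAK-243 R1 (0.1104). The Dnah6 call for sgUba1 was lost without NC R2 (edgeR adjusted p = 0.07673) or sgUba1 R2 (0.0951), and that of Ptpn22 without sgUba1 R1 (0.05161).

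Genes lowered by both numbered 902 (5.74%), with median log2 fold changes of -0.71 and -0.35. Slc7a11, at chr3:49892526-50443614 on the minus strand, encodes the cystine/glutamate exchanger that supplies cells with cystine for glutathione. It stood at 220.4 and 222 CPM untreated and 54.3 and 55.6 with TAK-243, and at 126 and 117 CPM in NC and 45.5 and 45.1 in sgUba1. The log2 fold changes were -1.995 ± 0.04 and -1.43 ± 0.05 (edgeR adjusted p = 3.913e-26 and 3.478e-08). Both treated groups lay below both control groups, although the untreated and NC levels differed.

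Aldh1l2, a mitochondrial enzyme of folate metabolism, stood at 38.4 and 34.9 CPM untreated and 6.44 and 7.05 with TAK-243, and at 18.9 and 17.9 CPM in NC and 4.64 and 4.64 in sgUba1. The log2 fold changes were -2.43 ± 0.11 and -1.98 ± 0.10 (edgeR adjusted p = 7.173e-18 and 2.871e-07). H1f0, a linker histone of slowly dividing cells, stood at 111 and 111 CPM untreated, 13.0 and 14.5 with TAK-243, 155 and 176 in NC, and 61.7 and 64.2 in sgUba1. Its fall was larger under the drug, at -3.01 against -1.39 on the log2 scale (edgeR adjusted p of the difference 2.139e-11). Krt76, a keratin of stratified epithelia, stood at 14.5 and 15.9 CPM untreated, 5.78 and 5.55 with TAK-243, 27.5 and 22.6 in NC, and 6.60 and 6.23 in sgUba1, and its fall was larger in sgUba1, at -1.96 against -1.41 (edgeR adjusted p of the difference 0.01774). Mroh4, Cxcl15 and Ankrd37 fell by 1.45 to 3.21 on the log2 scale in these comparisons. Sulf2 had a log2 fold change of -1.57 for sgUba1, and the call was lost without any one of the 4 guide line libraries (edgeR adjusted p = 0.05286 without NC R1, 0.1785 without NC R2, 0.167 without sgUba1 R1 and 0.1179 without sgUba1 R2).

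**Figure D2:**
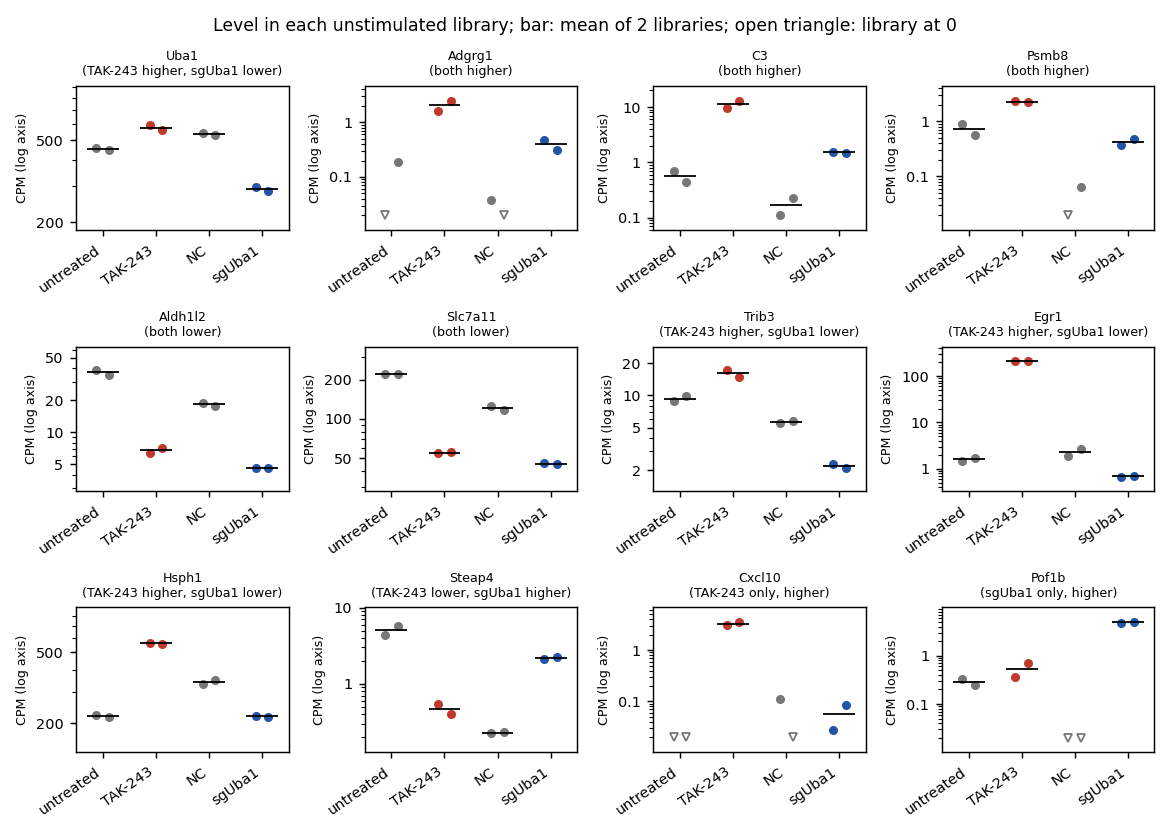
CPM of 12 genes in each unstimulated library, on log axes that differ between panels, with the class of each gene under its name; points are R1 and R2, bars are means (drawn where both libraries are above 0), and open triangles at the foot of a panel mark libraries at 0. Slc7a11 and Aldh1l2 fell in both experiments, Uba1, Trib3, Egr1 and Hsph1 moved in opposite directions, and Pof1b was at 0 in both NC libraries only.

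In 725 genes (4.62%) TAK-243 raised what sgUba1 lowered, with median log2 fold changes of 0.56 and -0.35. Egr1, an immediate early transcription factor, stood at 1.48 and 1.69 CPM untreated and 213 and 218 with TAK-243, and at 1.86 and 2.72 CPM in NC and 0.651 and 0.708 in sgUba1. The log2 fold changes were 7.09 ± 0.09 and -1.75 ± 0.28 (edgeR adjusted p = 2.003e-31 and 0.0007606). Notch1, the receptor of the Notch pathway, stood at 2.83 and 3.83 CPM untreated, 12.5 and 11.8 with TAK-243, 10.5 and 11.1 in NC, and 2.09 and 2.24 in sgUba1. Its log2 fold changes were 1.88 ± 0.17 and -2.31 ± 0.11 (edgeR adjusted p = 3.836e-11 and 1.541e-07). The TAK-243 level of Notch1 was thus near the NC level, and the sgUba1 level was near the untreated one.

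Lamb1, a laminin chain of basement membranes, stood at 3.22 and 2.76 CPM untreated, 18.7 and 18.5 with TAK-243, 6.398 and 5.87 in NC, and 1.64 and 1.27 in sgUba1. Fat2, an atypical cadherin, stood at 4.50 and 5.65 CPM untreated, 37.7 and 36.1 with TAK-243, 10.8 and 11.3 in NC, and 3.11 and 2.46 in sgUba1. In both genes the groups stood apart in each experiment. Mettl7b and Col9a3 were ranked here too, but at under 1 CPM in the guide lines. The Mettl7b call for sgUba1 was lost without sgUba1 R2 (edgeR adjusted p = 0.06609), and that of Col9a3 without any of NC R1, sgUba1 R1 or sgUba1 R2 (edgeR adjusted p = 0.06491, 0.06192 and 0.09786).

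In 1120 genes (7.13%) the drug lowered what the guide raised, with median log2 fold changes of -0.83 and 0.33. Steap4, at chr5:7960457-7982213, encodes a metalloreductase of prostate and fat tissue. It stood at 4.44 and 5.71 CPM untreated and 0.547 and 0.396 with TAK-243, and at 0.223 and 0.230 CPM in NC and 2.09 and 2.27 in sgUba1. The log2 fold changes were -3.36 ± 0.34 and 3.25 ± 0.31 (edgeR adjusted p = 4.687e-10 and 3.44e-05). The NC level was thus below the untreated level by more than the sgUba1 level was. Ablim1, an actin-binding LIM protein, stood at 4.05 and 3.70 CPM untreated, 0.608 and 0.555 with TAK-243, 0.186 and 0.328 in NC, and 10.7 and 9.74 in sgUba1. Xdh, the enzyme that makes uric acid, stood at 2.77 and 2.26 CPM untreated, 0.426 and 0.238 with TAK-243, 0.112 and 0.164 in NC, and 2.21 and 2.29 in sgUba1. Psen2 and Adamts12 were ranked here as well. In all 5 of these genes NC stood below untreated cells.

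Among genes raised by TAK-243 only, the leading ones were silent or nearly so in every control. Tubb3, a neuronal β-tubulin, was at 0 in both untreated libraries and at 4.20 and 4.36 CPM with TAK-243, at least 44.8-fold higher against a floor of 3 counts over the group. It stood at 0.0372 and 0 CPM in NC and at 0 in both sgUba1 libraries, which is under the floor. Cxcl10, an interferon-inducible chemokine that draws T cells, was at 0 in both untreated libraries and at 3.10 and 3.49 CPM with TAK-243, at least 34.3-fold higher. In the guide lines Cxcl10 stood at 0.112 and 0 CPM in NC and 0.0283 and 0.0849 in sgUba1. Prph, a neuronal intermediate filament, had a ratio of 116 (20.4 to 4621) from 1 untreated count, and Sytl2 and Prss56 were at least 39.4-fold and 25.6-fold higher.

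Of the genes lowered by TAK-243 only, Dhrs3, a retinal reductase, stood at 177 and 176 CPM untreated and 4.32 and 4.99 with the drug, and at 131 and 139 CPM in NC and 130.3 and 131 in sgUba1. The log2 fold change was -5.24 ± 0.07 for TAK-243 (edgeR adjusted p = 4.459e-30) and -0.05 ± 0.05 for sgUba1 (edgeR adjusted p = 0.5388). Klf15, a transcription factor of metabolic and hormone responses, stood at 43.7 and 46.5 CPM untreated, 1.70 and 1.35 with TAK-243, 52.8 and 54.6 in NC, and 51.9 and 50.1 in sgUba1. Myc, a driver of growth whose counts may include reads of the related transgene, stood at 680.4 and 664 CPM untreated and 109 and 103 with TAK-243, and at 539 and 680.3 CPM in NC and 585 and 596 in sgUba1, with log2 fold changes of -2.65 and -0.04. Without NC R1 the sgUba1 change of Myc was -0.20 (edgeR adjusted p = 0.0003635), and without NC R2 it was 0.14 (edgeR adjusted p = 0.007655). Lrrn3, Zfp523 and F8a fell by 3.04 to 3.995 on the log2 scale under TAK-243. Esrrb, a nuclear receptor, had 1 count left, at a ratio of 0.0167 (0.000416 to 0.0962).

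Genes moved by sgUba1 only were led by genes at 0 in NC. Pof1b, at chrX:112638431-112698651, an actin-binding protein of epithelial junctions, was at 0 in both NC libraries and at 4.73 and 5.01 CPM in sgUba1, at least 93.1-fold higher. It stood at 0.322 and 0.251 CPM untreated and 0.365 and 0.713 with TAK-243. Fxyd3, a regulator of the sodium pump, was at 0 in both NC libraries and at 3.20 and 2.97 CPM in sgUba1. Arhgap44 was at 0 in both NC libraries and at 2.43 and 2.07 CPM in sgUba1, but it stood at 1.61 and 1.57 CPM in untreated cells. Gpa33, Map2 and Arhgap32 were higher in sgUba1 than in any of the other unstimulated libraries.

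Among the lowered genes of this class, Vwa3a ranked first. It stood at 13.4 and 15.4 CPM in NC and 0.368 and 0.481 in sgUba1 (log2 fold change -5.07 ± 0.19, edgeR adjusted p = 3.478e-08), and at 1.16 and 0.941 CPM in untreated cells. Krt19, a simple-epithelial keratin lowered by both, stood at 420 and 484 CPM in NC and 5.80 and 6.71 in sgUba1, and at 129 and 122 CPM untreated and 84.6 and 81.2 with TAK-243. It had the log2 fold changes -6.17 and -0.58. Usp11, an X-linked deubiquitinase, stood at 2.68 and 2.89 CPM in NC and 1.13 and 0.906 in sgUba1, and at 1.35 and 2.32 CPM untreated and 2.37 and 1.66 with TAK-243. Levels of the guide lines and of untreated cells come from different experiments, and these gaps between NC and untreated cells cannot be told apart from the experiment.

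The sgUba1 change also followed the chromosome. Among genes with a mean log2 CPM of at least 3, the median log2 fold change of sgUba1 was -0.30 on chromosome 2, -0.21 on chromosome 5, 0.26 on chromosome 12 and 0.20 on chromosome 16. On the other 16 chromosomes it lay between -0.06 and 0.08. A median near 0 can hide a mixed shift: on chromosome 15 (median -0.04) 26.1% of genes tested were lower in sgUba1 and 15.2% higher. Among all genes tested these shares were 13.5% and 15.7%. Chromosome 15 was not divided by position, and its genes stay in the counts below that leave out chromosomes 2, 5, 12 and 16. Chromosome 5 was split, at 0.31 before 40 Mb (147 genes) and -0.29 from 40 Mb on (460 genes). For TAK-243 the median lay between -0.18 and 0.02 on every chromosome. The R1 and R2 effects had like medians on chromosome 2, at -0.30 and -0.29. Chromosomes 2 and 5 held 43.5% of all genes lower in sgUba1 and 13.9% of genes tested, and chromosomes 12 and 16 held 16.3% of those higher and 6.73% of genes tested. Against untreated cells, a comparison that crosses experiments, chromosome 2 stood at 0.33 in NC and 0.05 in sgUba1, and chromosome 12 at 0.05 in NC and 0.30 in sgUba1. The cause was not tested.

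**Figure D3:**
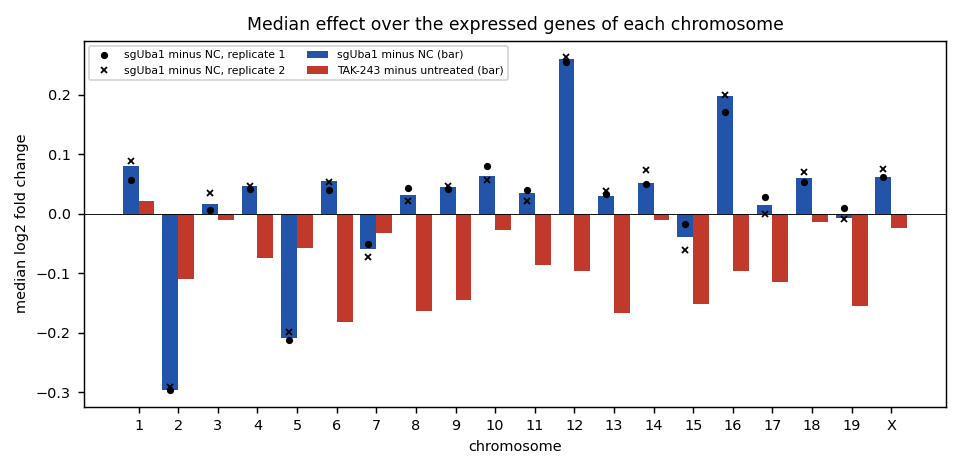
Median log2 fold change per chromosome over genes with a mean log2 CPM of at least 3, for TAK-243 against untreated and for sgUba1 against NC, as bars, with the R1 and R2 effects of sgUba1 as points. Chromosomes 2 and 5 lie below and chromosomes 12 and 16 above the others for sgUba1, and not for TAK-243.

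Notch1, Trib3 and B2m lie on chromosome 2, and Hspb1 and Hsph1 lie on chromosome 5 beyond 40 Mb. Without the genes of chromosomes 2, 5, 12 and 16, a choice made after seeing the data, sgUba1 moved 2845 of 12461 genes, 61.9% of them higher. Then 1064 genes moved the same way in both, 1137 in opposite ways and 430 by sgUba1 only.

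The lists below were written by hand, and their counts stand beside those of all genes tested. Of all genes 30.1% rose and 31.9% fell under TAK-243, and 15.7% rose and 13.5% fell in sgUba1, with medians of 0.03 and -0.00 on the log2 scale. List counts for sgUba1 were small and several moved by over 1.5 times when 1 library was left out. The ubiquitin E1 list, which holds the activating enzymes of ubiquitin and its relatives, had 4 of 9 members higher and 2 lower under TAK-243, and 1 higher and 2 lower in sgUba1. The 1 that was higher did not pass the test without NC R1, NC R2 or sgUba1 R1. Uba6, the other E1 that activates ubiquitin, stood at 66.6 and 65.2 CPM untreated, 96.8 and 102 with TAK-243, 80.4 and 82.6 in NC, and 75.2 and 79.0 in sgUba1. It rose under the drug only, at a log2 fold change of 0.61 ± 0.05 (edgeR adjusted p = 7.215e-12) against -0.08 ± 0.05 (edgeR adjusted p = 0.2779). Uba3, the catalytic chain of the NEDD8 E1, moved like Uba1, at 0.76 and -0.23.

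Of 31 E2 enzymes, 20 rose and 5 fell under TAK-243, and 8 rose and 4 fell in sgUba1. The 8 that rose in sgUba1 also rose under TAK-243, beside 5.26% of all genes tested that rose in both. Without sgUba1 R1 5 rose and 2 fell in sgUba1, and without sgUba1 R2 4 rose and 2 fell. Without untreated R1 3 fell under TAK-243. Ube2h stood at 52.3 and 52.5 CPM untreated, 177 and 185 with TAK-243, 43.9 and 38.7 in NC, and 55.2 and 55.4 in sgUba1, with log2 fold changes of 1.80 and 0.43. Ube2e1 changed by a like amount in both, at 0.74 and 0.72. Of 34 genes of the 26S proteasome, 26 rose and 4 fell under TAK-243, and 4 rose and 8 fell in sgUba1. The sgUba1 balance turned with single libraries, to 11 risen and 7 fallen without NC R1 and 10 and 9 without NC R2. Without sgUba1 R1 4 fell, and without sgUba1 R2 2 rose and 3 fell. Away from the 4 chromosomes, 17 of 23 rose and 3 fell under TAK-243, and in sgUba1 1 passed the test, lower.

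The integrated stress response list, whose genes are driven by ATF4 when translation initiation is curbed, was mostly lower under both. Of 34 members 9 rose and 20 fell under TAK-243, and 2 rose and 23 fell in sgUba1, with medians of -0.28 and -0.32. The 2 risen in sgUba1 were 1 without NC R2 and did not pass without sgUba1 R1 or R2. In 13 members both fell, beside 5.74% of all genes tested, and in 7 TAK-243 was higher and sgUba1 lower, beside 4.62%. Slc7a11, Aldh1l2 and Chac1, which degrades glutathione, were among the 13. Trib3, a pseudokinase, was among the 7. It stood at 8.87 and 9.79 CPM untreated, 17.1 and 14.9 with TAK-243, 5.58 and 5.78 in NC, and 2.29 and 2.12 in sgUba1. Nupr1, a stress-induced chromatin protein, stood at 18.3 and 18.01 CPM untreated, 50.3 and 42.5 with TAK-243, 7.402 and 12.5 in NC, and 4.39 and 3.85 in sgUba1. Atf3, a transcription factor of the same response, stood at 7.84 and 7.03 CPM untreated, 74.0 and 70.5 with TAK-243, 5.32 and 6.50 in NC, and 5.46 and 4.98 in sgUba1. Atf4, Ddit4 and Eif4ebp1 were lower in sgUba1 only. Away from the 4 chromosomes, 18 of 29 fell in sgUba1 and 16 of 29 under TAK-243.

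The promoters of these genes were read next. The letters TGATGNAA, part of the composite element bound by ATF4 and C/EBP factors, were searched on both strands of the 250 bases before the start site in RefSeq promoters (GRCm38.p6), which 11318 of the tested genes matched. They were found in 2.76% of these promoters, in 2.53% of those of genes lowered by both and in 1.22% of those raised by TAK-243 and lowered by sgUba1. On the integrated stress response list 8 of 27 promoters held them. Stretches around the match are shown for 4 genes that moved in 3 different ways, with the matching letters of either strand in capitals, read along the gene's own strand.
Slc7a11 (both lower, chr3:50443632-50443719): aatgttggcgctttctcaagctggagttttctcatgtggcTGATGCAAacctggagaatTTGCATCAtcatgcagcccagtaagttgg
Chac1 (both lower, chr2:119351009-119351096): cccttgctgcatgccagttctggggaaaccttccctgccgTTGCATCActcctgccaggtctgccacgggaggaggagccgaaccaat
Nupr1 (TAK-243 higher, sgUba1 lower, chr7:126625533-126625620): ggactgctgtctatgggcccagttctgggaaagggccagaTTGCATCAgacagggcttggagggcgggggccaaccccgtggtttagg
Atf3 (TAK-243 only, higher, chr1:191183396-191183483): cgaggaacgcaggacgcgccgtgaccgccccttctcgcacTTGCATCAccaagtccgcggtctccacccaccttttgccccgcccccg
The same 8 letters, TTGCATCA, were thus present before genes of all these classes, and a match is not a site of binding.

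Immediate early genes, which are switched on within minutes of a stimulus, moved apart. Of 21 AP-1 and EGR genes, 19 rose and 2 fell under TAK-243, with a median of 1.86. In sgUba1 1 rose and 10 fell, with a median of -0.22, and 9 of the fallen ones had risen under TAK-243, beside 4.62% of all genes tested. The count risen in sgUba1 was 2 without NC R1 and 4 without NC R2. Ier3, which is induced early by many stimuli, stood at 16.1 and 15.9 CPM untreated, 262 and 275 with TAK-243, 27.6 and 27.7 in NC, and 14.3 and 13.7 in sgUba1. Fos was the exception that rose in both, at 5.003 and 1.55, although its sgUba1 call was lost without sgUba1 R1 (edgeR adjusted p = 0.06069). Away from the 4 chromosomes 17 of 19 rose under TAK-243 and 9 of 19 fell in sgUba1. Of 29 NF-κB and early response genes 22 rose and 2 fell under TAK-243, and 5 rose and 7 fell in sgUba1. The 5 were 3 without NC R1 or sgUba1 R1 and 2 without sgUba1 R2. Cxcl2, a neutrophil chemokine, stood at 0.450 and 0.314 CPM untreated, 22.7 and 20.3 with TAK-243, 0.260 and 0.492 in NC, and 0.0849 and 0.227 in sgUba1.

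Of 24 cytosolic heat shock genes, which hold chaperones that refold proteins, 20 rose and 3 fell under TAK-243, and 2 rose and 6 fell in sgUba1. Without NC R1 4 rose and 12 fell in sgUba1, without NC R2 4 rose, and without sgUba1 R1 or R2 1 rose. Hspb1, a small heat shock protein, stood at 141 and 137 CPM untreated, 1597 and 1498 with TAK-243, 147 and 162 in NC, and 80.6 and 79.3 in sgUba1. Its log2 fold changes were 3.49 ± 0.03 and -0.95 ± 0.05 (edgeR adjusted p = 7.516e-34 and 8.604e-07). Hsp90aa1, the inducible HSP90, stood at 1821 and 1831 CPM untreated, 6606 and 6814 with TAK-243, 2182 and 2308 in NC, and 2293 and 2354 in sgUba1. Hspa1a and Hspa1b rose under TAK-243 only, at 1.43 and 1.53, but are near-identical copies between which reads may be split. Away from the 4 chromosomes 15 of 19 rose under TAK-243 and 4 of 19 fell in sgUba1.

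Androgen-responsive and prostate lineage genes were mostly lower with the drug. In the guide line more rose than fell, but not with chromosomes 2, 5, 12 and 16 left out. Of 11 members 1 rose and 9 fell under TAK-243, with a median of -1.14, and 5 rose and 2 fell in sgUba1, with a median of 0.13. Without NC R2 1 fell in sgUba1. Fkbp5, a co-chaperone and androgen target, stood at 477 and 477 CPM untreated, 62.4 and 59.7 with TAK-243, 433 and 401 in NC, and 456 and 430.2 in sgUba1. Psca, a surface antigen of prostate cells, stood at 47.0 and 49.4 CPM untreated, 19.6 and 18.2 with TAK-243, 41.7 and 44.5 in NC, and 72.8 and 74.2 in sgUba1. Steap4, Steap2, Steap1 and Psca were lowered by TAK-243 and raised in sgUba1, beside 7.13% of all genes tested. Steap4 lies on chromosome 5 before 40 Mb, where the median sgUba1 change was 0.31 on the log2 scale. The sgUba1 changes of Steap1 and Steap2 were 0.25 and 0.30. Without chromosomes 2, 5, 12 and 16 7 members were left, of which 5 fell under TAK-243 and 2 rose and 2 fell in sgUba1.

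Cell cycle lists gave mixed counts. Of 35 mitosis genes 15 rose and 12 fell under TAK-243, and 2 rose and 16 fell in sgUba1. In 9 of these the drug raised what the guide lowered, beside 4.62% of all genes tested. The 2 risen in sgUba1 were 4 without NC R1, 1 without NC R2 or sgUba1 R1, and did not pass without sgUba1 R2. Mki67, a marker of dividing cells, stood at 812 and 803 CPM untreated, 1072 and 1056 with TAK-243, 1693 and 2009 in NC, and 1337 and 1358 in sgUba1. Of 38 DNA replication genes 7 rose and 24 fell under TAK-243, and 9 rose and 9 fell in sgUba1. The 9 risen in sgUba1 were 1 without sgUba1 R1 and 4 without sgUba1 R2. Among the 23 away from the 4 chromosomes 5 rose and 1 fell in sgUba1.

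Genes of interferon signaling were compared in these cells in the absence of added interferon. Of 20 signaling genes 10 rose and 5 fell under TAK-243, and 8 rose and 1 fell in sgUba1. The 8 were 4 without sgUba1 R1 and 3 without sgUba1 R2, and the 1 fallen was 3 without NC R1 and 2 without sgUba1 R1. Jak1, the kinase of the interferon receptors, stood at 127 and 128 CPM untreated, 359 and 355 with TAK-243, 130 and 132 in NC, and 147 and 142 in sgUba1. The log2 fold change was 1.502 ± 0.03 for TAK-243 (edgeR adjusted p = 2.466e-25) and 0.14 ± 0.05 for sgUba1 (edgeR adjusted p = 0.03621), a call lost for Jak1 without sgUba1 R1 (adjusted p = 0.3796) or R2 (0.1733). Irf1 rose under TAK-243 only, at 0.82 against -0.18, and Ifngr1 in sgUba1 only, at 0.49 against 0.04. Stub1, an E3 ligase, fell under TAK-243 only, at -0.58 against 0.08.

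Of 36 interferon effector genes 8 rose and 12 fell under TAK-243, and 11 rose and 2 fell in sgUba1, with medians of 0.11 and 0.40. The TAK-243 median changed sign with the setting, at -0.22 without TAK-243 R1, 0.05 without TAK-243 R2, -0.02 without untreated R1, -0.06 without untreated R2, -0.40 over genes with at least 10 counts in every library and -0.03 away from the 4 chromosomes. The sgUba1 median was 0.26 and 1 gene fell without sgUba1 R2. The MHC class I presentation list held 20 genes, of which 14 were tested, and H2-K1 was not among the 14. Of these 14 genes 5 rose and 3 fell under TAK-243, and 8 rose and 1 fell in sgUba1, with medians of 0.14 and 0.47. The TAK-243 median changed sign here too, at -0.11 without TAK-243 R1, 0.31 without untreated R1, 0.05 over genes with at least 10 counts in every library and -0.05 away from the 4 chromosomes. The 1 fallen in sgUba1 was 2 without NC R1 and did not pass without NC R2, sgUba1 R1 or sgUba1 R2. B2m, the invariant chain of class I molecules, rose in both, from 100.9 and 102.5 CPM to means of 130.2 with TAK-243 and from 59.1 and 66.7 in NC to 85.7 and 83.9 in sgUba1. Psmb8, an immunoproteasome subunit, stood at 0.900 and 0.565 CPM untreated, 2.31 and 2.22 with TAK-243, 0 and 0.0656 in NC, and 0.368 and 0.481 in sgUba1, with a sgUba1 to NC ratio of 12.2 (3.09 to 105.2). The T cell chemokine gene Cxcl9 passed neither test, at 0.579 and 1.19 CPM untreated, 1.22 and 0.713 with TAK-243, 1.08 and 0.984 in NC, and 0.623 and 0.736 in sgUba1. Away from the 4 chromosomes 7 of 24 effectors rose in sgUba1 and 4 of 24 under TAK-243.

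**Figure D4:**
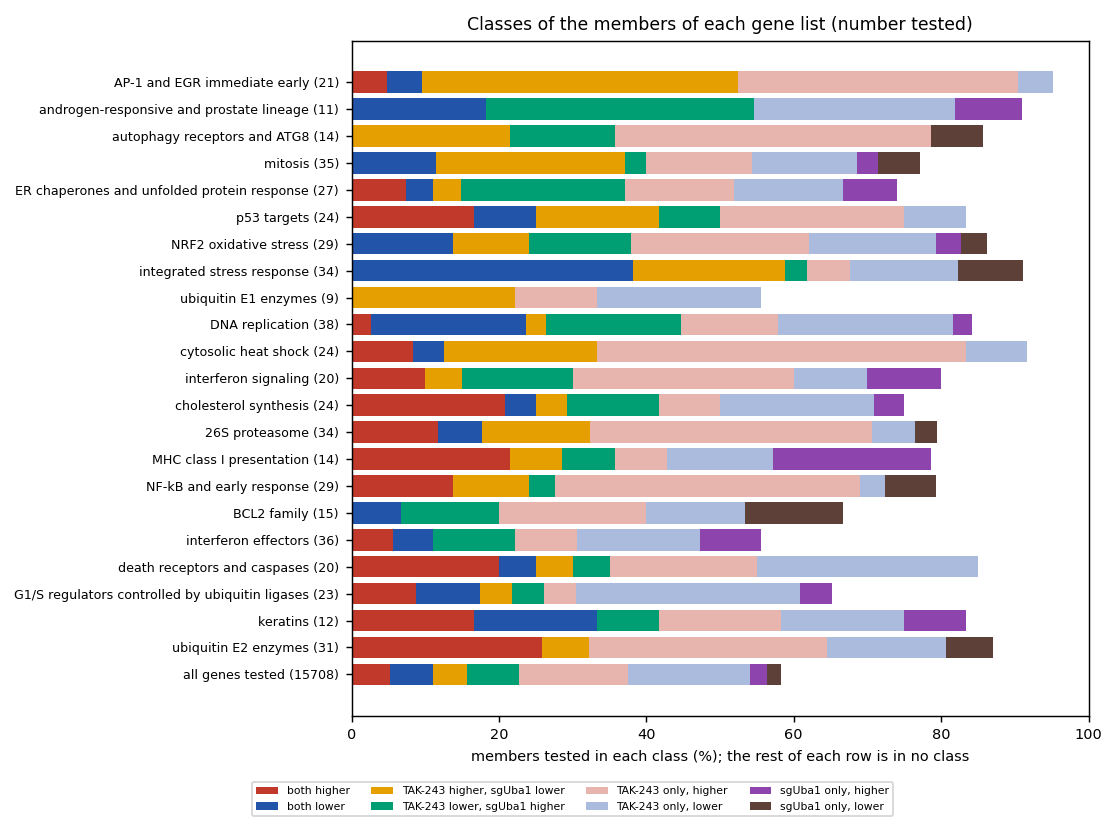
For each gene list, the share of its tested members in each class (both higher, both lower, either opposite class, or moved by 1 agent only) as stacked bars in percent, with the rest left blank and all genes tested in the lowest bar. The integrated stress response list has 13 of 34 members lowered by both, and the AP-1 and EGR list 9 of 21 raised by TAK-243 and lowered by sgUba1.

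The classes were then read in the 8 IFN-γ-stimulated libraries of the same cells and lines, which the classes were not chosen on, although they shared the estimate of spread and the line. Among all genes tested, 63.8% were past the threshold for TAK-243 and 38.8% for sgUba1 in stimulated cells. Genes lowered by both returned most often of the 4 classes moved by both, with 799 of 902 (88.6%) in the same class again, beside 11.4% of all genes tested. Of the genes raised by both 510 (61.7%) were in the same class again, beside 5.49%. Of those raised by TAK-243 and lowered by sgUba1 531 (73.2%) were, beside 6.53%, and of the reverse class 675 (60.3%), beside 6.87%. Past the threshold in the same direction in stimulated sgUba1 cells were 91.0% of genes lowered by both and 63.9% of those lowered by TAK-243 and raised by sgUba1.

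**Figure D5:**
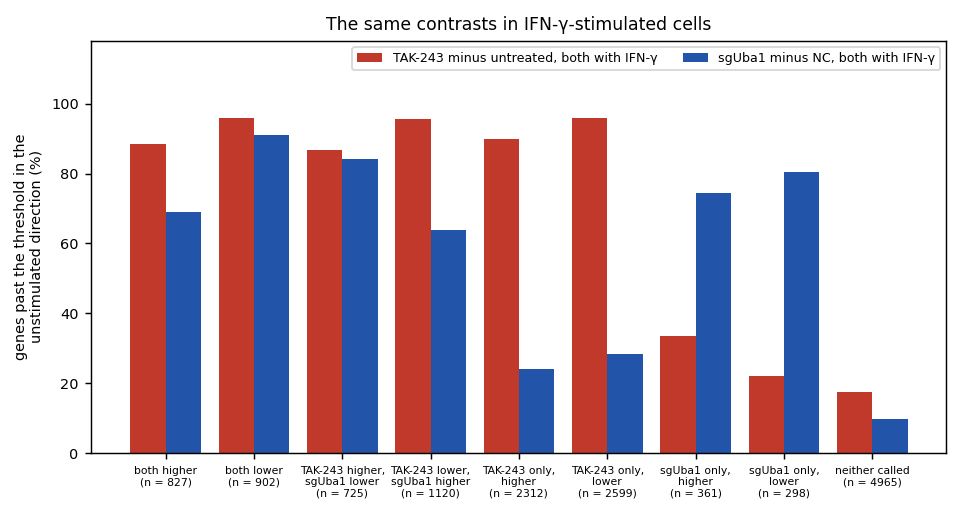
For each class set in unstimulated cells (x axis), the share of its genes in percent (y axis) past the threshold in the same direction in IFN-γ-stimulated cells, for TAK-243 and for sgUba1. Genes lowered by both returned in 96.01% and 91.02%, and genes raised by both in 88.4% and 68.9%.

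Slc7a11, Egr1 and Steap4 are given as examples of single genes in stimulated cells, and do not stand for all genes of their classes. Slc7a11 stood at 195 and 197 CPM with IFN-γ alone and 53.3 and 52.5 with TAK-243 added, and at 92.1 and 93.9 CPM in stimulated NC and 41.8 and 45.3 in stimulated sgUba1. Egr1 stood at 2.17 and 1.33 CPM, 246.7 and 250 CPM, 2.65 and 1.999, and 0.963 and 0.930 in the same order of groups. Steap4 stood at 3.29 and 3.04 CPM, 0.924 and 1.07, 0.291 and 0.297, and 2.12 and 2.82. Each of these 3 genes kept its direction in both experiments.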

How the data were processed

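RNA was sequenced in bulk from cultured Myc-CaP cells. The labels describe poly(A) capture, whereas the study's methods name ribosomal RNA removal, and the deposited values do not settle which was used. The authors deposited expected counts per gene, estimated by kallisto (version not given in the sources used here, build mm10 per the submitters' processing notes), and TPM values for 40077 genes in 51 libraries. Of the gene identifiers, 39142 matched GENCODE M21 with their version, which gave positions on GRCm38.

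Expected counts were rounded to whole numbers, where the design had assumed counts (30.0% of values were not whole), and tested in edgeR 4.0.16 (R 4.3.3) by the quasi-likelihood test with TMM scaling, over the 15708 genes kept by filterByExpr across 16 cell libraries. Each experiment was fitted on its own 8 libraries, stimulated ones included, and the difference of the effects on all 16. P-values were adjusted by Benjamini-Hochberg, with 0.05 as the threshold and a prior count of 2 for fold changes. CPM are scaled by TMM. Intervals on ratios are 95% and, like the floor of 3 counts over the group, cover counting error only. No library pair held identical values.

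The members of the comparison, gene lists and motifs were chosen with earlier results of these data known. Genes were named by rank. For genes moved by both, the rank was by the smaller of both absolute log2 fold changes (8 higher, 8 lower, 5 of each opposite class). For those moved by one only, it was by the difference of effects (6 each way). From each list, up to 4 members moved by both and up to 2 moved by one only were taken. Uba1, Uba6, Stub1 and genes of interferon signaling were fixed by name. Ranked genes needed a mean log2 CPM of at least 1 in a group and no overlap between libraries. Chac1, Atf4, Ddit4, Eif4ebp1, Steap1, Steap2, Hspa1a and Hba-a1 fell outside the rule and were chosen after their values were seen. Alternatives were DESeq2 1.42.0, limma 3.58.1 (voom, and log2(TPM + 1) on the deposited TPM), other scaling, filters and samples. On simulated counts for these 15708 genes, 96% of genes changed 2-fold the same way in both and 92% of those changed in opposite ways were recovered (25 genes each). At 1.5-fold these were 92% and 92%, and of genes changed by one agent only 56% (TAK-243) and 72% (sgUba1) were recovered. Changes were planted only in genes with ample counts, with a single fixed spread per experiment and all other genes unchanged. Recovery among low-count genes, or where replicates are uneven as in NC, was thus not measured. Genes of the H2 region such as H2-K1 were not analysed here, and some results are not reported here. Promoters and guide positions come from RefSeq and GENCODE tables of GRCm38.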

Additional observations from a re-analysis of the deposited data

Results flagged for a closer look

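The TAK-243 and sgUba1 effects differed, by the edgeR test of the difference itself, in 8692 of 15708 genes. This count was flagged because it sets apart 2 groups' effects under a like contrast. It rests on 2 libraries a group and on 2 experiments of unlike depth, and the part of exposure time, control cells and experiment in it cannot be told apart.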

How the results depend on the processing

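Counts of genes moved by TAK-243, by sgUba1, differing between them, moved the same way, in opposite ways, by TAK-243 only and by sgUba1 only stayed within 1.5 times the reported ones with DESeq2, limma-voom, RLE scaling, other filters on low counts and fits of the 8 unstimulated or all 16 libraries. With at least a 2-fold change required they were 3477, 500, 3600, 124, 91, 2486 and 156. On log2(TPM + 1) with limma sgUba1 moved 2526 genes, 826 the same way and 907 in opposite ways, and the other counts stayed within 1.5 times. Leaving out each library in turn gave 8954 to 9734, 2920 to 5591, 8061 to 8747, 1120 to 2092, 1144 to 2301, 4155 to 5650 and 447 to 795. Without chromosomes 2, 5, 12 and 16, chosen after seeing the data, sgUba1 moved 2845 genes, with 1064 the same way, 1137 in opposite ways and 430 by sgUba1 only, of 12461 genes tested. With the replicate number as a block the counts were 9757, 4780, 8729, 1803, 1942, 4791 and 681. Same-numbered libraries deviated together at r between -0.03 and 0.07, so the numbers were not taken as pairs. Of 364 fold changes of 182 named genes, 194 had a value in all 18 alternatives, and 160 of these kept direction and call in all. The other 170 were left out by a filter or by chromosome in at least 1, and 147 kept both where run. A single value reversed: Myc in sgUba1, -0.04 as reported, -0.20 without NC R1 and 0.14 without NC R2. The cause was not tested. RLE, upper quartile or no scaling put the median log2 fold change of all genes between -0.08 and 0.10. The depth of the TAK-243 experiment limits genes under about 1 CPM.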

Other observations

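Autophagy receptors and ATG8 genes, which carry cargo to the lysosome, rose in 10 and fell in 2 of 14 under TAK-243, and rose in 2 and fell in 4 in sgUba1. The 2 did not pass without NC R2, sgUba1 R1 or sgUba1 R2, and the 4 were 7 without NC R1 and 1 without sgUba1 R2. Without untreated R1 1 fell under TAK-243. Sqstm1, the receptor p62, stood at 136 and 138 CPM untreated, 777 and 754 with TAK-243, 123 and 125 in NC, and 110.4 and 106 in sgUba1. Its log2 fold changes were 2.50 and -0.20. Of 29 NRF2 and oxidative stress genes 13 rose and 14 fell under TAK-243, and 5 rose and 8 fell in sgUba1. Of 24 p53 target genes 14 rose and 6 fell under TAK-243, and 6 rose and 6 fell in sgUba1, beside 30.1% and 31.9%, and 15.7% and 13.5%, of all genes tested. Eda2r, a death receptor, rose by a like amount in both, at 1.46 and 1.54 on the log2 scale, from 13.3 and 14.9 CPM to 36.4 and 40.3 with TAK-243 and from 3.16 and 2.63 in NC to 8.38 and 8.32 in sgUba1. Cdkn1a, the CDK inhibitor p21, moved apart, at 2.15 and -0.55.

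Of 27 ER chaperone and unfolded protein response genes 10 rose and 11 fell under TAK-243, and 10 rose and 2 fell in sgUba1. Without sgUba1 R1 6 rose and 1 fell, without sgUba1 R2 5 rose and 1 fell, and without NC R1 5 fell. In 6 of them, among them Sel1l, Sdf2l1 and Xbp1, the drug lowered what the guide raised, beside 7.13% of all genes tested. Of 12 keratins 6 rose and 5 fell under TAK-243, and 4 rose and 2 fell in sgUba1 (4 fell without NC R1). Krt8 rose in both, at 1.70 and 1.61, from 4.12 and 3.26 CPM to 12.6 and 11.02 with TAK-243 and from 3.496 and 3.05 in NC to 10.8 and 9.09 in sgUba1.

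Of 15708 genes tested, a switch from under 1 CPM to at least 5 CPM in both libraries was seen in 30 under TAK-243 and in 10 in sgUba1, 1 of them shared. The reverse switch was seen in 8 and in 3. Of the 10 switched on in sgUba1, only 4 were under 1 CPM in untreated cells too. Hba-a1, 1 of the 10, stood at 13.4 and 9.54 CPM untreated, so its switch rests on a low NC level.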
